A study of Mus musculus with 16 samples.

Results

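A stretch of mouse chromosome 8 was examined in which some transcripts kept a high T-to-C rate late in a chase in WT leukemia cells. The members were the intervals of chromosome 8 between 2 set coordinates, the first starting at 68904507 and the last ending at 121798236 (mouse build GRCm38), that had a mean CPM (reads scaled to library size) of at least 5. There were 388 such intervals of 200 genes over 52.89 Mb, among 12178 intervals of 6027 genes with the same mean CPM in the whole table. The stretch was chosen on its rates at 12, 18 and 24 h in both genotypes, so those rates are given as a description, with no test.

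The cells were leukemia cells of YBX1-/- and of WT mice, labelled as bone marrow of the strain C57BL/6. Each genotype received 50 µM 4-thiouridine (4sU) over 24 h, a wash, and then 10 mM uridine for the chase. RNA of each genotype was taken at 0, 0.5, 1, 3, 6, 12, 18 and 24 h, which gave 16 polyA libraries, 1 for each genotype and time, with no replicates. The oncogene behind the leukemia, the way in which YBX1 was removed, and whether the libraries of a genotype came from 1 culture are not stated. Of 13 myeloid marker genes, 13 had a mean CPM of at least 5 (median 101), whereas 0 of the 3 B cell, 3 T cell, 5 erythroid and 3 stromal markers did. Of the 3 megakaryocyte markers, 1 did.

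In SLAM-seq, RNA made in the presence of 4sU is read with C in place of T at labelled positions after chemical conversion. During a chase with uridine, the share of T-to-C reads falls as labelled transcripts decay and unlabelled ones are made. YBX1 is a cold-shock domain protein that binds RNA and is known for acting on the stability and translation of mRNA, and the title of the study ties this to m6A, a methyl mark on adenosine that is common in 3′ UTRs. A T-to-C rate can also count read differences of that kind that come from a difference in the genome between cells. The program that counted conversions is not given, so whether such differences enter this rate is unknown. Whether the late rates in WT were label or sequence variation was not tested.

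The intervals were nearly all pieces of 3′ UTR: 385 of the 388 members overlapped an annotated 3′ UTR of their gene, the exceptions being 3 intervals of Zfp869. As examples of the sequence behind the rates, the first match in an interval to GGACT, a core form of the m6A consensus, is shown with 10 bases on either side. It is given on the transcribed strand, with the match in capitals, for some of the genes with high late WT rates. They are at chr8:71404495-71404519 (plus strand, Babam1), chr8:70182177-70182201 (plus, Tmem161a), chr8:70071866-70071890 (plus, Sugp1) and chr8:121797943-121797967 (minus, Klhdc4). The last 3 lines are from genes of the stretch without high late rates, at chr8:94179654-94179678 (plus, Mt1), chr8:121597051-121597075 (plus, Map1lc3b) and chr8:84842606-84842630 (minus, Calr). The letters come from GENCODE M21 transcripts on GRCm38.
Babam1: attcttcctgGGACTatttttgtca
Tmem161a: accaggattgGGACTgttccctgtg
Sugp1: ggccatccttGGACTatgaaatgtt
Klhdc4: tgtcaagcatGGACTgctgtacgtc
Mt1: ttatgtcttgGGACTcaaagacata
Map1lc3b: tccctagtagGGACTtaaaacagaa
Calr: cttcagggctGGACTgaggcctgaa

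GGACT was searched on the transcribed strand only, and it stood in 58.0% of the members with sequence, against 62.5% of the other intervals of chromosome 8 and 54.8% of the whole table. Per kilobase the order differed, with 1.33 matches in the members, 0.847 in the rest of chromosome 8, where intervals were longer, and 0.973 in the table. Among the members with a late WT excess, defined below, the share was 54.7%, and among the other members 58.7%. Of the genes with the highest late WT rates, Ccdc124, Mvb12a, Zfp330, Farsa and Borcs8 had no GGACT in their interval. The T content counted from these sequences equalled the deposited one in 381 of 381 members with sequence, and in 12162 of 12162 intervals of the table.

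The typical member did not keep a high rate. The median late rate, the mean of 12, 18 and 24 h, was 1.15% in YBX1-/- and 2.08% in WT over the 388 members. Over the rest of chromosome 8 it was 1.10% in YBX1-/- and 1.43% in WT, and over all intervals 1.29% in YBX1-/- and 1.49% in WT. The late WT rate was under 2% in 187 members (48.2%) and at least 10% in 44. Its 75th percentile was 4.70% in the members, 1.97% in the rest of chromosome 8 and 2.33% over the table. Its 90th percentile was 10.8%, 2.79% and 3.81% in the same order. The 44 include intervals of Cope and Borcs8 that were high in YBX1-/- too, described below. The name of the stretch therefore fits a minority of its members, and the text below separates them.

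A late WT excess was counted where the late rate in WT was at least 5 percentage points above that in YBX1-/-. It was found in 70 of 388 members (18.0%), which belonged to 40 genes, against 1 of 253 intervals (0.395%) in the rest of chromosome 8 and 124 of 11537 (1.07%) on other chromosomes. The background over the whole table was 1.6%. The opposite, YBX1-/- at least 5 percentage points above WT, was found in 3 members, in 8 intervals of the rest of chromosome 8 (3.16%) and in 1.45% of the table. Those 8 belonged to Msr1, Klhl2 and March1 only, and those of Klhl2 and of March1 overlap. WT lay above YBX1-/- at each of 12, 18 and 24 h in 107 members (27.6%), against 9.88% of the rest of chromosome 8 and 12.9% of the table. With 1 interval for each gene, that with the highest mean CPM, 36 of 200 genes (18.0%) had the excess, against 0 of 137 in the rest of chromosome 8 and 37 of 5690 (0.65%) elsewhere. Since the stretch was picked for this difference, these shares describe it and do not test it.

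**Figure D1:**
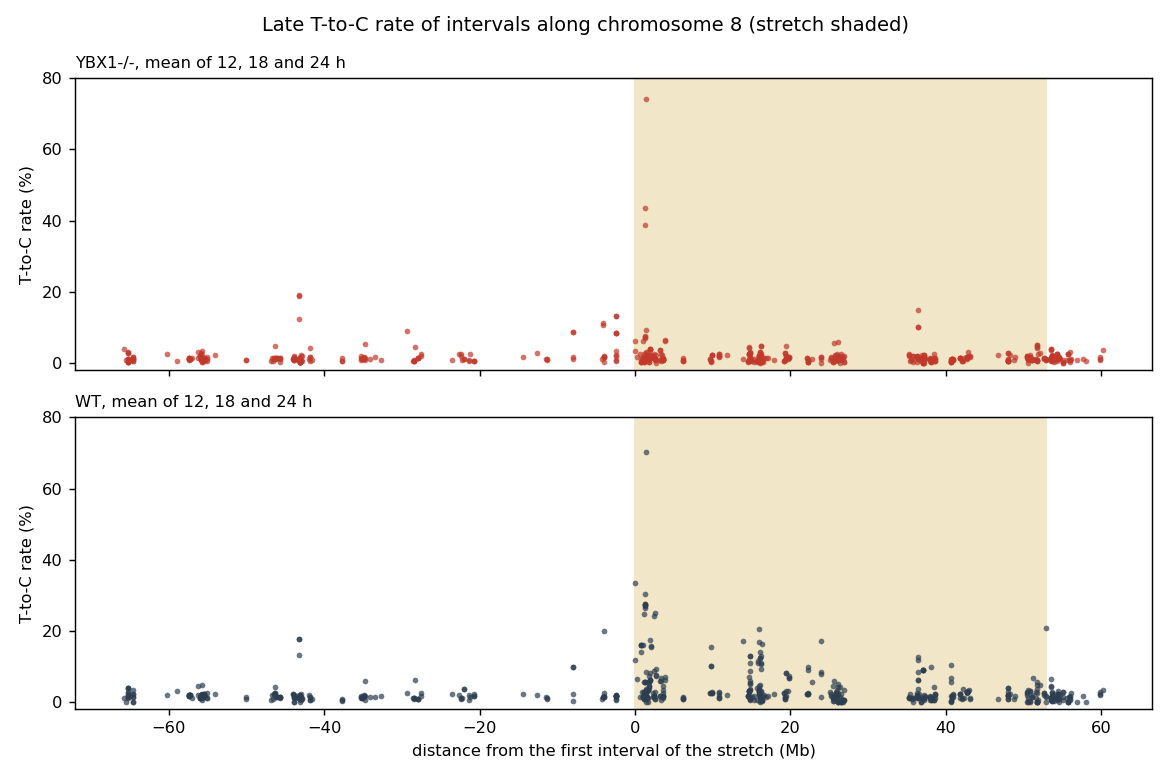
Late T-to-C rate (mean of 12, 18 and 24 h, in percent) of each interval of chromosome 8 with a mean CPM of at least 5, against its distance in Mb from the first interval of the stretch, in YBX1-/- (top) and WT (bottom), with the stretch shaded. Many WT points in the shaded part reach 10% or more, 44 in all, while YBX1-/- points at the same places mostly lie near the median of 1.15%.

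Over the whole chase, the median rates of the 70 excess members in YBX1-/- at 0, 0.5, 1, 3, 6, 12, 18 and 24 h were 29.2%, 31.8%, 27.5%, 18.8%, 3.28%, 0.584%, 0.971% and 0.559%. In WT their medians were 46.3%, 49.2%, 46.1%, 25.2%, 20.7%, 15.4%, 10.2% and 8.57%. The other 318 members had 31.0%, 32.2%, 28.2%, 16.2%, 4.67%, 1.63%, 1.15% and 0.727% in YBX1-/- at these times, against 40.0%, 44.8%, 40.0%, 20.4%, 9.03%, 2.21%, 1.17% and 0.853% in WT. In both sets the WT median stood above that of YBX1-/- at all 8 times, and in the excess members the widest gap in proportion was at the late times by which they were defined. The rest of chromosome 8 had 4.07%, 1.48%, 1.18% and 0.691% in YBX1-/- at 6, 12, 18 and 24 h, against 9.48%, 2.55%, 0.813% and 0.703% in WT.

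**Figure D2:**
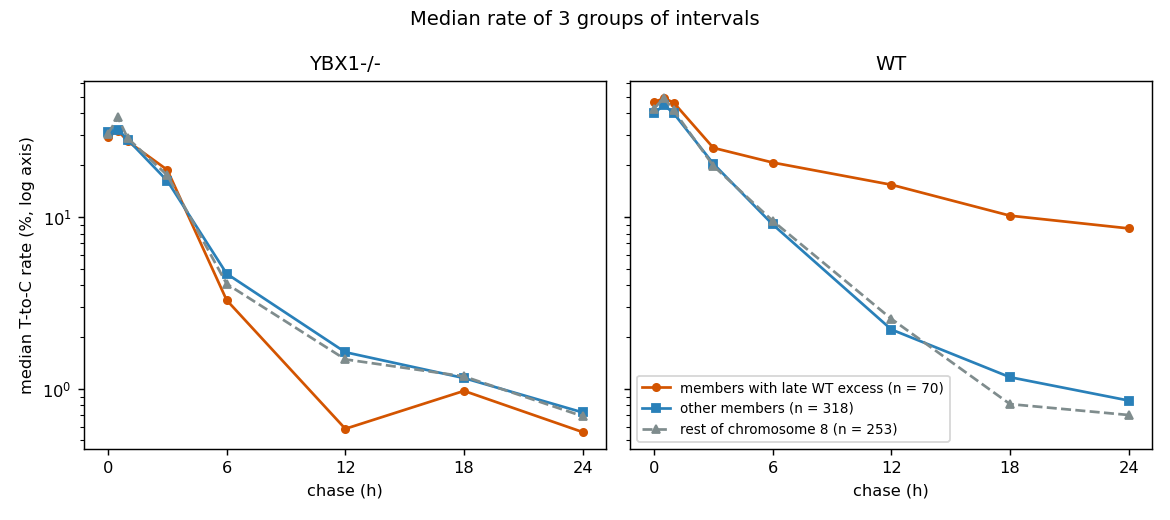
Median T-to-C rate (percent, log axis) against hours of chase for the 70 members with a late WT excess, the other 318 members and the 253 intervals of the rest of chromosome 8, in YBX1-/- (left) and WT (right). The 3 lines run close together in YBX1-/- except at 12 h, and in WT the line of the excess members levels off and ends at 8.57%, against 0.853% for the other members.

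The excess was densest in the first 25 Mb of the stretch, a division not set in advance. There 58 of 209 members (27.8%) of 33 genes had it, against 12 of 179 (6.70%) of 7 genes further on. In 5 Mb windows from the first interval the share was 29.5%, 25%, 16.1%, 28.8% and 41.7% over the first 25 Mb. Of these, the 25% was 3 of 12 intervals, all of Slc10a7, and the 41.7% was 5 of 12, of Aktip and Lpcat2. The share was 0 of 40 between 25 and 30 Mb, and there were no members between 30 and 35 Mb. In the windows beyond, it was 11.9%, 9.68%, 0% and 5.71%. The longest gap between neighbouring genes with an excess in any interval was 12.41 Mb. When the whole table was divided into windows of 10 Mb, 203 windows held at least 20 intervals, and the 4 with the highest shares were all on chromosome 8. They ran from 80 to 90 Mb (25.9%), 70 to 80 Mb (24.5%), 60 to 70 Mb (22.2%) and 100 to 110 Mb (13.9%). The window from 60 to 70 Mb, which reaches beyond the near end of the stretch, also had 7 of 36 intervals (19.4%) with YBX1-/- at least 5 percentage points above WT. These 7 were overlapping intervals of March1 and of Klhl2. The next was on chromosome 1 from 60 to 70 Mb, with 10.0%, where all 4 excess intervals belonged to 1 gene.

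**Figure D3:**
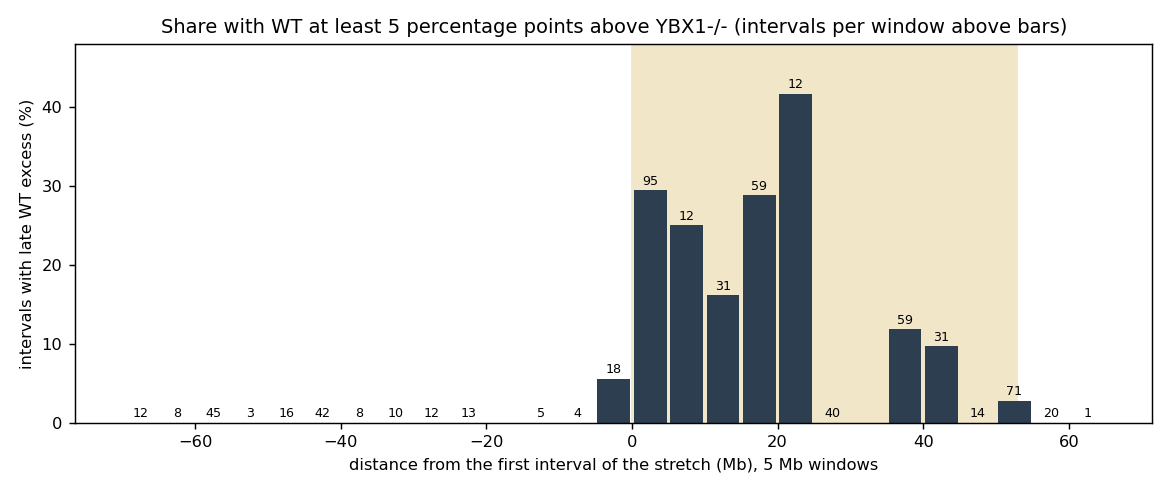
Percent of intervals with a late WT excess in windows of 5 Mb along chromosome 8, by distance in Mb from the first interval of the stretch (shaded), with the number of intervals above each bar. The 5 windows of the first 25 Mb lie between 16.1% and 41.7%, and the last shaded window also holds intervals beyond the end of the stretch.

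At the near end the limit lay between Lpl and Tma16, the nearest gene outside with a mean CPM of at least 5, which ends at 66480488. The limit was set on these late rates, so an excess at the edge is a description only. Lpl, which encodes lipoprotein lipase, is the first gene inside (68904507 to 68906934, plus strand), and its rates at 12, 18 and 24 h were 11.1%, 6.62% and 0.699% in YBX1-/-, against 14.0%, 10.1% and 10.6% in WT. The genotypes were thus closest at 12 h and far apart at 24 h. The first 61 bases of this UTR, listed as an interval of their own, had a late rate of 3.19% in YBX1-/- and 33.3% in WT. The second gene inside, Atp6v1b2, a subunit of the vacuolar proton pump, had 2.60%, 1.5% and 0.715% in YBX1-/- and 6.69%, 4.62% and 8.22% in WT, a mean difference of -4.90 percentage points that just missed the count. Next inside, up to Sugp1, genes with the excess (Zfp869, Ndufa13 and Sugp1) were mixed with genes without it (Zfp868, Gmip, Gatad2a and Mau2). The nearest genes outside showed no WT excess. Tma16 had a late rate of 0.517% in YBX1-/- and 0.627% in WT. March1, a membrane E3 ubiquitin ligase of antigen-presenting cells, went the other way, with 30.8%, 7.32% and 1.41% in YBX1-/- and 2.43%, 1.31% and 0.840% in WT. The 1 excess interval in the rest of chromosome 8 belonged to Tmem192, a lysosomal membrane protein, less than 5 Mb before the stretch. It had 1.59%, 0% and 3.89% in YBX1-/- and 57.1%, 2.38% and 0% in WT, so that 1 library carried it. At the far end, the last genes inside were Map1lc3b and Klhdc4, described below, and the next genes outside, Slc7a5 and Zc3h18, had late rates of 1.05% and 0.781% in YBX1-/-, against 1.57% and 0.935% in WT. At the CPM limit, the intervals just inside were of Dus2 (mean CPM 5.05; late rate 0% in YBX1-/- and 0.546% in WT) and Sugp1 (5.06; 1.63% and 24.6% in the same order). An interval of Nfat5 lay just outside (4.98; 2.56% in YBX1-/- and 1.21% in WT).

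Some genes had high WT rates in every late library. In 28 members (7.22%) WT was at least 5 percentage points above YBX1-/- at each of 12, 18 and 24 h, a criterion chosen after the values were seen. This was so for 0 of 253 intervals in the rest of chromosome 8, 10 of 11537 on other chromosomes, and 0.312% of the table. Of the 28 members, 27 lay in the first 25 Mb. By the interval with the most reads, 15 genes met the criterion. In YBX1-/- their rates ranged from 0% to 11.1% at 12 h (median 1.67%), 0% to 4.74% at 18 h (1.03%) and 0% to 2.60% at 24 h (0.648%). In WT they ranged from 6.81% to 31.1% (18.2%), 7.06% to 42.1% (15.8%) and 6.54% to 33.3% (13.9%) at the same times. At 24 h the lowest of these genes in WT lay above the highest in YBX1-/-.

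By each gene's interval with the highest mean CPM, the highest late WT rate with an excess was that of Tmem161a, which encodes a multi-pass membrane protein (70181883 to 70183667, plus strand, 3′ UTR). It had 0%, 0.971% and 0.648% at 12, 18 and 24 h in YBX1-/-, against 26.3%, 42.1% and 13.9% in WT. Mvb12a, a subunit of the ESCRT-I sorting complex (71547825 to 71548026, plus), had 2.78%, 0% and 0% in YBX1-/- and 25.8%, 15.4% and 33.3% in WT. Both genes were near 0 in YBX1-/- from 12 h on, and neither WT course fell steadily. Sugp1, a splicing factor (70071833 to 70072347, plus), had 0%, 4.17% and 0.735% in YBX1-/- and 31.1%, 23.3% and 19.4% in WT. Babam1, a member of the BRCA1-A complex of DNA repair (71404399 to 71404619, plus), had 2.22%, 0.971% and 0.463% in YBX1-/- and 29.1%, 16.5% and 26.9% in WT. In Sugp1 the WT rate fell over the late times, while in Babam1 it was lowest at 18 h.

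Ccdc124, a coiled-coil protein (70868227 to 70868440, minus strand), had 2.59%, 0.617% and 0.577% in YBX1-/- and 11.1%, 18.6% and 22.6% in WT. Zfp330, a zinc finger protein (82763621 to 82764228, minus), had 1.90%, 1.21% and 0.344% in YBX1-/- and 16.0%, 21.5% and 14.1% in WT. In Ccdc124 the WT rate was higher at 24 h than at 12 h, and in Zfp330 it was highest at 18 h. Lpcat2, an acyltransferase that makes platelet-activating factor (92918035 to 92918823, plus), had 1.01%, 1.79% and 0.337% in YBX1-/- and 19.5%, 14.3% and 17.0% in WT. Farsa, the catalytic subunit of phenylalanyl-tRNA synthetase (84868866 to 84869256, plus), had 0%, 0.538% and 1.22% in YBX1-/- and 18.2%, 15.8% and 16.1% in WT. Both genes had a flat late course in WT. In 16 of 67 excess members with a WT rate above 0 at 12 h (23.9%), the WT rate at 24 h was at least that at 12 h, against 46 of 257 other members (17.9%) and 15.9% of the table.

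**Figure D4:**
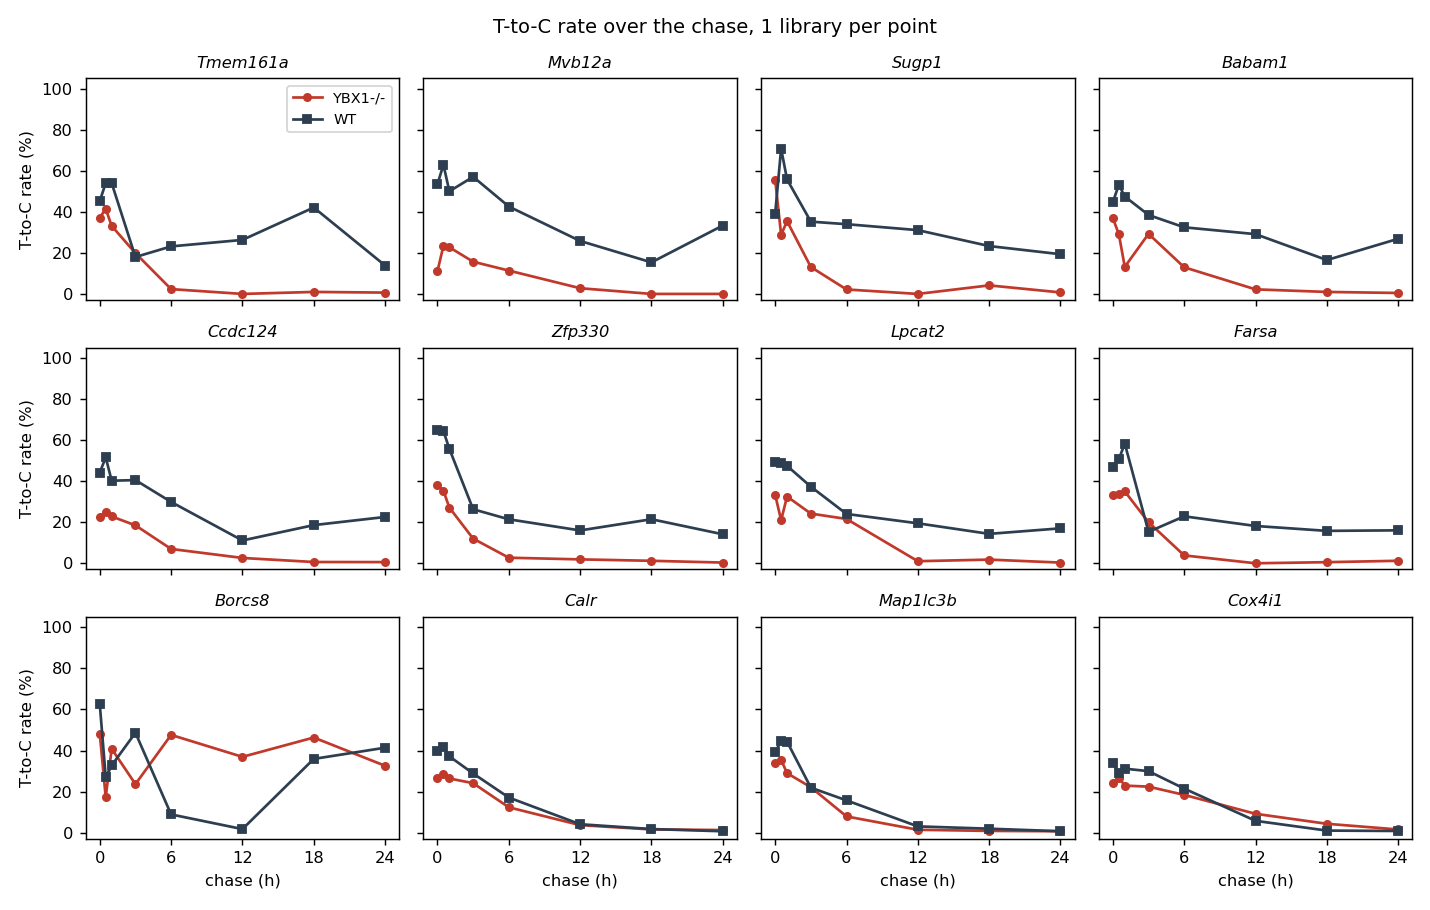
T-to-C rate (percent) against hours of chase for 12 genes of the stretch in YBX1-/- and WT, with 1 library for each point. In the first 8 panels the WT line stays between 11.1% and 42.1% at the late times while the YBX1-/- line is at or below 4.17%, Borcs8 is high in both genotypes, and Calr, Map1lc3b and Cox4i1 fall in both.

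In other genes the late values differed widely between libraries. Of the 36 genes with an excess, 22 kept a difference of 5 percentage points with each late time left out in turn, and 14 did not. Klhdc4, a kelch-domain protein at the far end of the stretch (121797834 to 121798236, minus), was among the 22, although its WT rates were far apart. It had 0.662%, 0.725% and 1.18% in YBX1-/- and 11.1%, 50.0% and 1.29% in WT. Lyl1 and Pgls were among the 14. Lyl1, a basic helix-loop-helix transcription factor of blood cells, had 0.348%, 0.730% and 0.546% in YBX1-/- and 4.82%, 1.28% and 26.7% in WT. Pgls, an enzyme of the pentose phosphate pathway, had 5%, 0.901% and 0.479% in YBX1-/- and 0%, 27.3% and 0% in WT. Without the 18 h libraries, Pgls was 2.74 percentage points higher in YBX1-/-, against 6.96 lower with them. The number of reads behind a single rate is unknown, so no counting interval could be set on such values.

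The next 5 genes had the highest mean CPM among the genes without an excess, so their lack of one was set by this choice. Many reads did not exclude an excess. Lpl, with a mean CPM of 121, had it, as did 13 of 102 members with a mean CPM of at least 20, against 70 of all 388. Mt1, a metallothionein, had late rates of 1.56%, 1.17% and 0.870% in YBX1-/- and 1.78%, 1.19% and 1.54% in WT. Map1lc3b, the autophagy protein LC3B, had 1.39%, 0.838% and 0.678% in YBX1-/- and 3.04%, 1.92% and 0.683% in WT. Calr, a chaperone of the endoplasmic reticulum, had 3.65%, 1.57% and 1.26% in YBX1-/- and 4.09%, 1.75% and 0.660% in WT. These genes lost nearly all label in both genotypes. Hsbp1, a binding partner of heat shock factor 1, had a late mean of 1.75% in YBX1-/- and 2.52% in WT. Cox4i1, a subunit of cytochrome c oxidase, had 9.18%, 4.31% and 1.54% in YBX1-/- and 5.76%, 0.997% and 0.810% in WT, higher in YBX1-/- at each time.

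A few members had high late rates in both genotypes. Borcs8, a subunit of a complex that positions lysosomes (70145024 to 70145549, plus), had 36.9%, 46.3% and 32.6% in YBX1-/- and 1.72%, 35.9% and 41.4% in WT. Its WT value at 12 h was far below the later ones, and this interval and a shorter one inside it were 2 of the 3 members with YBX1-/- at least 5 percentage points above WT. An interval of 3 bases in Cope, the epsilon subunit of the COPI coat (70306649 to 70306651), had 72.2%, 77.1% and 73.7% in YBX1-/- and 67.6%, 73.5% and 69.5% in WT. It started at 81.4% in YBX1-/- and 78.6% in WT at 0 h, so its rate hardly moved over the chase in either genotype. Another interval of Cope, from 70308495 to 70308576, had 3.65%, 0.709% and 0.261% in YBX1-/- and 4.41%, 2.92% and 2.1% in WT.

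The 3 gene lists had the excess about as often as the stretch as a whole, where 36 of 200 genes (18.0%) had it. The names of the lists are loose, since some genes on them, such as Dhps and Gadd45gip1, do not have the named function. Of 12 member genes among myeloid and blood regulators, 2 had it (16.7%), Lyl1 and Cyld, and the median late difference (YBX1-/- minus WT, percentage points, 1 interval for each gene) was 0.13, against -0.65 over the 200 genes of the stretch and -0.14 over the 6027 of the table. Cyld, a deubiquitinase that restrains NF-kappaB signalling, had 1.67%, 1.39% and 0.913% in YBX1-/- and 6.81%, 7.06% and 7.56% in WT. The other 10, which were Klf2, Hmox1, Gadd45gip1, Junb, Cbfb, Ctcf, Nfatc3, Maf, Plcg2 and Irf8, had none. Irf8, a transcription factor of the monocyte lineage, had 4.88%, 2.33% and 0.240% in YBX1-/- and 0.272%, 0.258% and 0.526% in WT. Maf, a transcription factor of macrophages, had 6.25%, 0% and 0% in YBX1-/- and 2.21%, 0.401% and 0% in WT. These 2 genes were thus low in both genotypes by 24 h.

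Of 17 member genes of protein production, folding and energy supply, 3 had the excess (17.6%), and the median difference was -0.90. They were Ndufa13, a subunit of respiratory complex I, Farsa, and Prdx2, a peroxidase. Ndufa13 had 11.1%, 4.74% and 2.60% in YBX1-/- and 23.0%, 12.5% and 12.0% in WT, on an interval of 41 bases. Prdx2 had 5.88%, 2.35% and 0.755% in YBX1-/- and 16.6%, 11.4% and 8.89% in WT. In both genes WT was above YBX1-/- at each time while both genotypes were falling. Those without it included Fkbp8, Ndufb7, Dnajb1, Calr, Got2, Atp6v0d1, Psmd7, Aars, Gabarapl2, Gcsh, Hsbp1, Emc8 and Cox4i1.

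Of 13 member genes on the list of RNA binding and decay, 2 had the excess (15.4%), Zfp330 and Nip7, and the median difference was -0.32. Zfp330 was 1 of the 4 genes fixed with earlier results known. Nip7, a factor of 60S ribosome assembly, had 2.02%, 0% and 0.659% in YBX1-/- and 11.5%, 8.89% and 8.56% in WT over its interval from 107058497 to 107060931. Its first 170 bases alone had 1.98%, 0% and 0.186% in YBX1-/- and 0.588%, 0.606% and 0.578% in WT, with no excess. Upf1, the helicase of nonsense-mediated decay, had 3.64%, 0% and 1.53% in YBX1-/- and was listed at 0 in WT at all 3 times. Cnot1, the scaffold of the CCR4-NOT deadenylase, had 4.88%, 0% and 0% in YBX1-/- and 0.848%, 0.602% and 0% in WT. The remaining members of this list, Mrpl34, Rbmxl1, Ddx39, Dhps, Ranbp10, Thap11, Dus2, Nob1 and Exosc6, had no excess.

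The excess could differ between pieces of 1 gene. Of 19 genes with at least 2 intervals that did not overlap, 5 had the excess in some interval, and 4 of these had a separate interval without it. Lpcat2 had a late rate of 1.04% in YBX1-/- and 16.9% in WT from 92918035 to 92918823, and of 0% in YBX1-/- and 1.40% in WT from 92914243 to 92914378. Klhdc4 had 0.856% in YBX1-/- and 20.8% in WT from 121797834 to 121798236, and 0.848% in YBX1-/- and 0% in WT from 121796547 to 121796743. In both genes the intervals lay within a few kilobases on the same strand. Asna1, which delivers tail-anchored proteins to the endoplasmic reticulum, had 0% in YBX1-/- and 13.9% in WT from 85018810 to 85018918, carried by 41.7% at 18 h in WT with 0% at 12 and 24 h. From 85019760 to 85019966 it had 0.534% in YBX1-/- and 0% in WT. Tmem208, a membrane protein of the endoplasmic reticulum, had 1.16% in YBX1-/- and 11.7% in WT from 105328463 to 105328692, carried by 35.2% at 12 h in WT. From 105328806 to 105328902 it had 14.8% in YBX1-/- and 8.41% in WT, the reverse order.

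**Figure D5:**
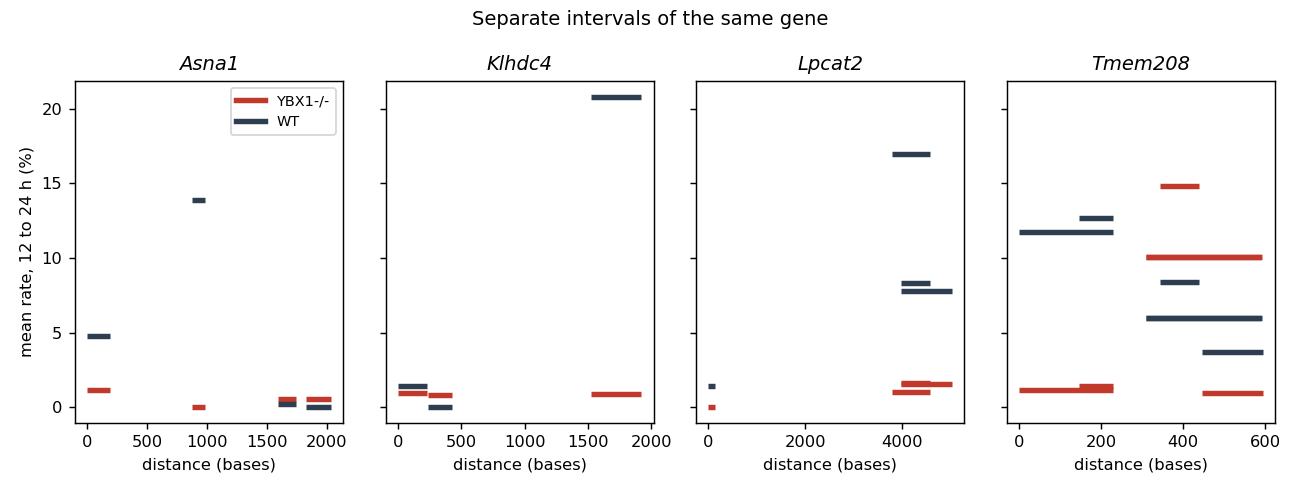
Mean T-to-C rate over 12 to 24 h (percent) of the intervals of Asna1, Klhdc4, Lpcat2 and Tmem208, drawn as bars over their distance in bases from the first interval of the gene, in YBX1-/- and WT. In each gene a WT bar above 11% stands beside a separate interval in which WT is lower, in Tmem208 below YBX1-/-.

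The libraries of 0 to 6 h were not used to choose the stretch. At 6 h, WT was at least 5 percentage points above YBX1-/- in 205 of 388 members (52.8%), near the background of 50.4% of the table. Within the stretch this was so for 54 of the 70 excess members (77.1%) and 151 of the 318 others (47.5%), against 126 of 253 (49.8%) in the rest of chromosome 8. The opposite, YBX1-/- at least 5 percentage points above WT at 6 h, was also more frequent in the excess members, with 7 of 70 (10.0%). It was found in 2.20% of the other members, 2.77% of the rest of chromosome 8 and 3.79% of the table. The median difference at 6 h (YBX1-/- minus WT) was -14.5 percentage points in the excess members, -4.72 in the others and -4.98 in the rest of chromosome 8. By 1 interval for each gene, 33 of the 36 excess genes (91.7%) were higher in WT at 6 h, close to 144 of the other 164 genes of the stretch (87.8%) and to 88.7% of the genes in the table.

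The level of label over 0 to 6 h was compared between genotypes with limma on log2(rate in percent + 0.1), with the time as a factor and each library's median subtracted. Of 383 members tested, 0 passed a Benjamini-Hochberg adjusted p of 0.05, and 0.0% of the 12102 intervals tested in the table did. The smallest adjusted p was 0.641 in the members. At an unadjusted p under 0.05 there were 24 members (6.27%), close to the background of 5.76%. The median log2 difference (YBX1-/- minus WT) was -0.07 over the members and 0.02 over the table. Among the excess members it was -0.39, with 58 of 68 tested members below 0 (85.3%), against 47.6% of the table and 50.5% of the other members. With 1 interval for each gene, 31 of 35 excess genes were below 0, where Dpep2 counts as 2 because it has 2 gene identifiers. An unadjusted p under 0.05 was found for 7 of the 35, of which 6 were below 0. In a fit with 1 interval for each gene, 15 of 197 genes of the stretch and 354 of 5984 of the table had such a p, in either direction.

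Among the excess members, Mvb12a had the smallest unadjusted p for the early level. Its rates at 0, 0.5, 1, 3 and 6 h were 11.1%, 23.4%, 22.7%, 15.7% and 11.4% in YBX1-/-, against 53.5%, 63.0%, 50.0%, 57.1% and 42.6% in WT. Every WT value lay above every YBX1-/- value, and the log2 difference after centring was -1.21 (SE 0.22, limma adjusted p = 0.641). Ccdc124 had 22.5%, 24.8%, 22.8%, 18.5% and 6.98% in YBX1-/- and 44.2%, 51.6%, 40.2%, 40.5% and 29.9% in WT, again with no overlap, and a difference of -0.71 (SE 0.15, limma adjusted p = 0.641). Zfp330 had 37.9%, 35.4%, 27.1%, 12.0% and 2.71% in YBX1-/- and 65.1%, 64.5%, 55.7%, 26.3% and 21.4% in WT, with a difference of -0.85 (SE 0.24, limma adjusted p = 0.785). Babam1 had 36.8%, 29.2%, 13.2%, 29.3% and 13.0% in YBX1-/- and 44.7%, 53.2%, 47.5%, 38.5% and 32.5% in WT, with a difference of -0.44 (SE 0.20, limma adjusted p = 0.785). At these times the medians of all intervals were 32.9%, 36.1%, 29.5%, 18.7% and 5.1% in YBX1-/-, against 42.4%, 48.7%, 43.2%, 20.6% and 10.5% in WT. All 4 genes, like these medians, were higher in WT at each early time, and none passed. Klhdc4 differed in the other direction, by 1.07 (SE 0.43, limma adjusted p = 0.785).

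The loss of label per hour over 0 to 6 h was compared with the interaction of genotype and time, which had 3 residual degrees of freedom. The difference is one of slopes of the centred log2 rate, so a value below 0 means a faster loss in YBX1-/-. Of 383 members, 0 passed, and 0.0% of the table did. So small a fit can call few differences, and a count of 0 does not show that the genotypes lost label alike. At an unadjusted p under 0.05 there were 63 members (16.4%), against 18.4% of the table. Of the 68 excess members tested, 30 were past that value (44.1%). The median difference of the 68 was -0.14 log2 per h (YBX1-/- minus WT), against 0.05 in the other members and 0.02 in the table. Of the 68, 43 were below 0 (63.2%), against 40.0% of the other members and 44.65% of the table. Members past that value lay on both sides of 0. By the interval with the most reads, Adcy7 was at -0.44 and Dhodh at 0.48 log2 per h. Many of the 68 share reads, with 5 intervals from Tmem161a alone, so the 30 do not stand for as many genes. A fit with 1 interval for each gene took genes with and without the excess together. In it, 35 of 197 genes of the stretch and 1170 of 5984 of the table were past that value. These counts did not hold under every choice of time points. Without the 3 h libraries 39 of 385 members (10.1%) passed at an adjusted p of 0.05, against 6.19% of the table. Of these members, 9 had a slower and 30 a faster loss in YBX1-/-, in a fit with 2 residual degrees of freedom. The early libraries also differed beyond these genes, since 2.26% of all intervals were at 0 in the YBX1-/- 0 h library and 0.189% in the WT 0 h library. Without the YBX1-/- 0 h library 0 members passed for level or for loss.

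Simple features of the intervals are given for comparison, with no test. The median length of the excess members was 672 bases, against 662 in the other members and 1187 in the rest of chromosome 8, and their T content was 27.4%, 26.4% and 28.4% in the same order. Their median mean CPM was 9.0, against 12.3 in the other members. Of the excess members, 43 were on the plus strand and 27 on the minus strand, against 220 and 168 of all members and 6262 and 5916 of the table. Many intervals share reads, since the 388 members reduce to 229 that do not overlap and the 70 excess members to 40. Of the 36 excess genes, 7 had an interval that overlapped one of another gene, against 27 of all 200 genes of the stretch. Dpep2 counts as 2 of the 7. Among them, Unc13a, a presynaptic protein, and Colgalt1, a collagen-modifying enzyme, overlap on opposite strands, and Dpep2, a dipeptidase, is listed under 2 gene identifiers at nearly the same place. No source used here says whether counting used the strand, so the reads of Unc13a and Colgalt1 cannot be told apart. Unc13a had 0% at 12, 18 and 24 h in YBX1-/- and 1.83%, 11.9% and 9.2% in WT. Its early rates were low too. At 0, 0.5, 1, 3 and 6 h they were 14.7%, 0%, 0%, 0% and 1% in YBX1-/-, against 7%, 2.5%, 4.9%, 9.1% and 6.9% in WT. Its WT rates at 18 and 24 h thus exceeded that at 0 h. Colgalt1 had 0.590%, 0.585% and 1.02% at 12, 18 and 24 h in YBX1-/- and 5.84%, 4.42% and 11.1% in WT.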

How the data were processed

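SLAM-seq was done on 16 libraries, 1 for each of 2 genotypes and 8 times. The T-to-C rate was deposited by the authors as a fraction from 0 to 1 per interval and library, and it was put on a percent scale. Mean CPM, the coverage signal on Ts and the T count of each interval were deposited by the authors as means over libraries, per the file headers. The submitters' processing notes name CASAVA, HISAT2 2.1.0 and the human build GRCh38. The files' intervals and gene identifiers were mouse, and their T counts matched GENCODE M21 transcripts on GRCm38. The program that counted conversions, the denominator of the rate and the depth per library are not given in the sources used here, so no counting error could be set, and a rate of 0 may mean no reads or no converted reads.

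Of 86993 rows, 74385 were different intervals. Starts were counted from 1. Intervals with a mean CPM of at least 5 were used. Late rates were means of 12, 18 and 24 h, without tests. Early level and loss of label were fitted with limma 3.58.1 (R 4.3.3, trend) over 10 libraries of 0 to 6 h, on log2(rate in percent + 0.1) minus the library median, for intervals above 0 in at least 8 libraries, with Benjamini-Hochberg adjustment over all of the table. Log2 differences on this scale understate changes of low rates. With 1 library for each genotype and time, p-values measure the scatter between times and libraries, not between animals. The step was tested on simulated data. Alternatives changed the added value, the filters, the centring, the intervals per gene and the time points.

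The members and the gene lists were chosen with earlier results of these data known. Named genes were 4 fixed ones (Babam1, Ccdc124, Zfp330 and Mvb12a), the 10 genes with the highest late WT rates, the 5 with the highest mean CPM and no excess, the 2 on each side of each end, members of the 3 lists and any past a test. Genes at the CPM limit and those shown for single libraries, for separate or very short intervals, for overlaps or for steady late rates were named after their values were seen. Some items of the lists are not reported here.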

Additional observations from a re-analysis of the deposited data

How the results depend on the processing

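The number of members past the adjusted threshold for the early level was 0 under all alternatives tried. For early loss of label it was 2 with a mean CPM of at least 20 (1.96% of 102 members, against 0.583% of the table). Of these, 0 had a slower and 2 a faster loss in YBX1-/-. The number was between 0 and 39 with 1 time left out, and 0 otherwise. Without centring, the median early level difference (YBX1-/- minus WT) of all tested intervals was -0.49 log2, against 0.02 with it. At an unadjusted limma p under 0.05 there were then 151 of 383 members, against 24 with centring. In the table there were 4556 of 12102, against 697. The number with a late WT excess, 70 of 388, was 111 of 752 with a mean CPM of at least 1, 13 of 102 with at least 20, 36 of 200 with 1 interval per gene, 31 with 10 percentage points in place of 5, and 28 with 5 points at each late time, the last chosen after seeing the data. It ranged from 58 to 71 with 1 late time left out. The late difference of Pgls, -6.96 percentage points, ranged from -12.95 to 2.74 with 1 late time left out and was positive without 18 h. The median late WT rate of the members ranged from 1.39% to 2.32%. With 1 library per point and no depth, these ranges carry no replicate error.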
